A study of Mus musculus with 8 samples.

Results

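The anoctamin (Ano) and CLCA genes were examined in the oviduct of adult mice that had been treated neonatally with genistein (Gen), a plant estrogen of soy. The group holds 10 genes, Ano1, Ano2, Ano3, Ano4, Ano5, Ano6, Ano10, Clca1, Clca2 and Clca3, measured by 16 of the 41174 noncontrol probes of the array. Members were found by the gene name that the array gives each probe, where the anoctamins stand under their older Tmem16 names. That name found 15 probes of 9 genes, and Ano3 was found by an older clone name (B230324K02Rik) that RefSeq lists as its synonym. The genes were chosen by earlier results of the same arrays, Ano2 for its lower signal after Gen, so the differences between the groups are given for them as a description, with no p-value. Their intervals are for the difference between the group means, with the variance between mice moderated by limma over all probes. Counts of the members by the array-wide threshold stand beside the share of all probes.

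Female CD-1 pups, an outbred stock, received daily subcutaneous injections on PND1–PND5 of corn oil (control, n = 4) or of Gen at 50 mg/kg/day in corn oil (n = 4). At 6–8 weeks of age all were superovulated and then mated. The oviducts were taken on GD2, 48 hr after hCG, and the embryos were removed. Both oviducts of 1 mouse made 1 replicate, and each replicate was hybridized to 1 Agilent array with 1 dye.

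Anoctamins are membrane proteins of the Tmem16 family. Ano1 and Ano2 are calcium-activated chloride channels, which let chloride cross the membrane when calcium rises inside the cell, and Ano6 is a calcium-dependent scramblase that moves phospholipids between the leaflets of the plasma membrane. Ano1 is known from secretory epithelia, smooth muscle and the pacemaker cells of the gut (interstitial cells of Cajal), and Ano2 from olfactory neurons and photoreceptors. CLCA proteins are secreted, cleave themselves and modulate calcium-activated chloride currents, but are not themselves channels. In the oviduct, chloride transport by the epithelium is part of how the luminal fluid around the embryo is made.

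The probe sequences of Ano2 and of the 3 CLCA genes, on which the results turn, are shown, since each value is the binding of RNA to 1 such oligonucleotide. The first 30 of the 60 bases of each probe are printed 5′ to 3′ as the files give them, all in lower case because no part of a probe is singled out, and the positions are those of the whole probe in the mouse genome build mm7 (NCBI build 35).
Ano2, brighter probe (chr6:126062586-126062645, plus strand): tcgggtcctttcttattcttcaccatcatc
Ano2, dimmer probe (chr6:125979722-125979781, plus strand): tcccataaggagcatatcactgttggagag
Clca1 (chr3:144623481-144623540, minus strand): cccgagttactaacaacattcttttgctat
Clca2 (chr3:144690604-144690663, minus strand): aacattgcacaggctgtcaagtttacttct
Clca3 (chr3:144897653-144897712, minus strand): tttctaaaaatgtactttagacttcctgta

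The 2 Ano2 probes lie 82.9 kb apart and share no stretch longer than 11 bases. Between probes of different member genes the longest shared stretch was 9 bases, and between the Clca1 and Clca2 probes it was 6. The gene name on the array is an old one for the CLCA genes. RefSeq now calls the array's Clca1 Clca3a1, its Clca2 Clca3a2 and its Clca3, also known as gob-5, Clca1. The array's names are kept here. The array assigns its Clca1 probe to transcripts of both Clca1 and Clca2, so that probe may read both genes.

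Signals are scaled intensities: each array's 75th percentile of log2 signal was set to the mean of the 8 arrays, and means over arrays were taken on the log2 scale. A fold change is the Gen mean minus the control mean of log2 signals, with its SE and 95% interval from limma. Per array, 25391–28949 probes of the controls and 29539–31485 of the Gen-treated mice were called well above background by Agilent's software. The lowest scaled signal with such a call ranged from 28.5 to 65.9 over the control arrays and from 14.5 to 21.0 over the Gen arrays. Each group had a slide and a scan of its own, and in every difference given here treatment cannot be told apart from slide. Markers of the oviduct were present: all 5 genes of a secretory epithelium list and all 7 of a ciliated epithelium list were above background throughout 1 group or both, and 0 of either list passed an adjusted p of 0.05 by limma. For Ovgp1, the oviduct glycoprotein, the mean signals were 517770 (controls) and 538270 (Gen-treated mice). In whole-oviduct RNA, fewer cells of a type and less RNA per cell cannot be told apart.

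**Figure D1:**
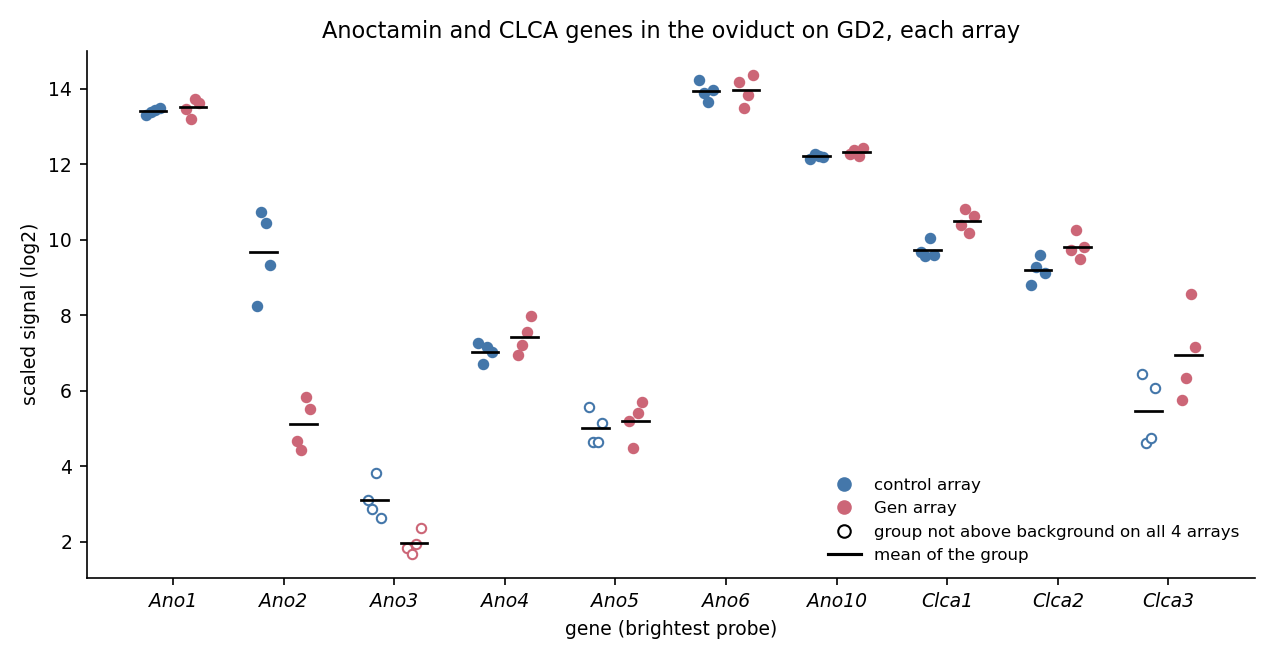
Scaled signal (log2, y axis) of the brightest probe of each of the 10 genes (x axis) on the 4 control and 4 Gen arrays; points are arrays, bars are group means, and open points mark a group that was not above background on all 4 of its arrays. Ano2 falls from a mean of 825 to 34.6 on the linear scale, Clca1 sits higher on every Gen array than on any control array, and Ano1, Ano6 and Ano10 overlap.

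Ano2 had the largest difference of the group and Clca1 was the only other gene above background on all 8 arrays whose control and Gen arrays did not overlap. Groups without overlap were found on 9239 of the 41173 probes of the whole array. On the brighter Ano2 probe the controls had scaled signals of 302, 1704, 1405 and 640, and the Gen-treated mice 25.7, 21.4, 56.8 and 45.7. Every control lay above every Gen-treated mouse, and the highest control was 5.64 times the lowest. The mean fell from 825 to 34.6, which is a log2 fold change of -4.58 (SE 0.58, 95% interval -5.91 to -3.25), or 23.9-fold lower. All 8 arrays were called above background on this probe. The Gen-treated mice stood close to the limit of that call, at 1.48–3.26 times the lowest signal called on the same array, whereas controls were at 7.57–50.8 times.

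This Ano2 probe had the lowest log2 fold change of the 24947 probes above background on all 8 arrays, which is a property it was selected on. The size of the fall depended on how background was treated: with normexp background correction the log2 fold change was -3.23, and with all signals below 65.9 raised to that floor it was -3.65. With each array left out in turn it was between -5.06 and -4.23.

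The dimmer Ano2 probe was not well above background on any array. Its signals were 11.0, 22.5, 17.5 and 18.9 in controls and 3.65, 3.31, 3.94 and 5.23 after Gen, again without overlap. The log2 fold change was -2.09 (SE 0.24). Values this low cannot be read as a level of Ano2, because probes not above background on any array differed between the groups as a class: the median log2 fold change of the 7856 such probes was -1.16. Of these, 19 had a lower log2 fold change than the dimmer Ano2 probe. Ano2 was selected on this contrast, so nothing is read from that rank.

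**Figure D2:**
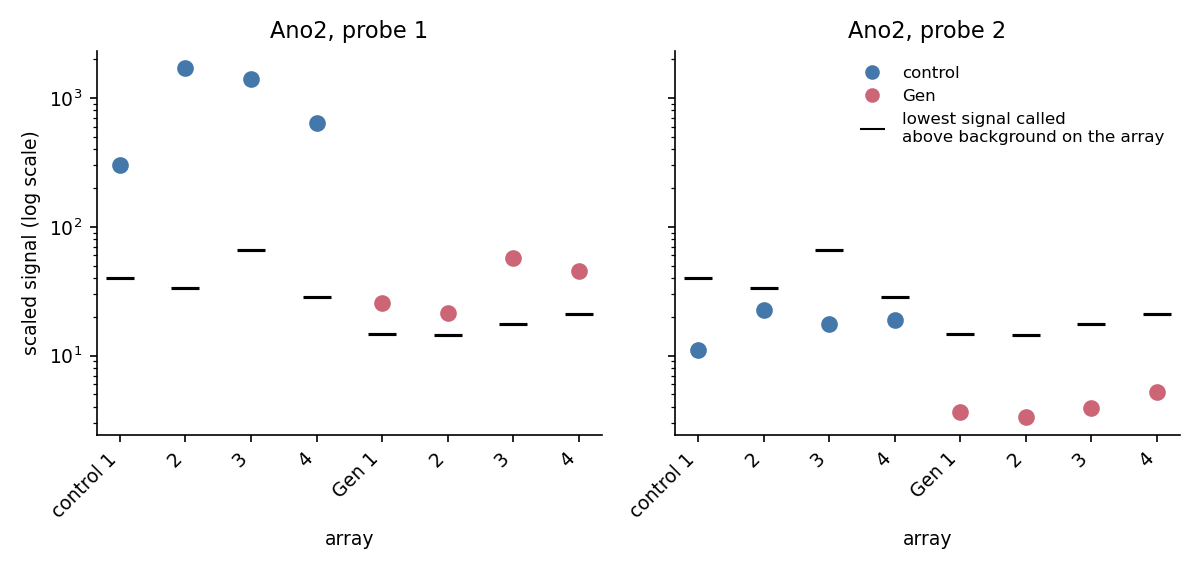
Scaled signal (log scale, y axis) of the brighter (probe 1) and dimmer (probe 2) Ano2 probe on each of the 8 arrays (x axis); dashes mark the lowest signal called above background on that array. Probe 1 lies above the dash on every array and probe 2 below it on every array, and the dashes themselves are lower on the Gen arrays (14.5–21.0) than on the control arrays (28.5–65.9).

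Ano2 is best known from olfactory neurons, and a list of olfactory transduction genes was read beside it. Of its 10 genes 9 had a probe and 7 were above background on all 4 arrays of a group, of which 0 passed an adjusted p of 0.05 by limma, with a median log2 fold change of 0.04. They include Cngb1 and Cnga2, subunits of the olfactory cyclic nucleotide channel, and Adcy3, the olfactory adenylyl cyclase (Adcy3 0.04, SE 0.21). Omp, which marks mature olfactory neurons, was dim, at 15.4–29.9 on the control arrays, of which 0 were above background, and at 28.9–40.1 on the Gen arrays, of which all 4 were (0.49, SE 0.22, limma adjusted p = 0.194). The part of olfactory-type cells in the Ano2 difference was not tested.

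Some markers of other cells differed between the groups. Of 8 cardiac muscle genes 3 were lower by limma, Myh7 (-2.60, SE 0.38), Myh6 (-2.55, SE 0.35) and Tnnt2 (-0.90, SE 0.26, adjusted p = 0.0479). The rest were not called: Actc1 (-0.52) and Myl7 (-0.08) were lower, and Tnni3 (0.37), Myl2 (0.41) and Nppa (0.16) higher. The list's summed signal was 88500–139600 in controls and 57570–89850 in Gen-treated mice, with overlap. Its brightest gene was Actc1, with a mean of 71490 in controls. Of 4 ovarian steroidogenic genes 3 were higher by limma, Cyp11a1, Hsd3b1 and Lhcgr. The list's summed signals were 2406–26950 (controls) and 28920–130000 (Gen-treated mice). Control replicate 3 set the top of the control range, with Hsd3b1 at 18615 and Cyp11a1 at 3903. Gen replicate 3, the lowest of its group for both, read 21861 and 4444. Lhcgr was not above background on any control array, and its groups overlapped. Calls for cell markers were made with the main processing only, not under the alternatives given below. The part of these cells in the values of the anoctamin and CLCA genes was not tested.

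The other calcium-activated chloride channel, Ano1, was bright in every mouse. Its signals were 10204, 10690, 11003 and 11436 in controls and 11323, 9415, 13479 and 12725 in Gen-treated mice. The groups overlapped, with the Gen-treated mice spread to both sides of the controls. The log2 fold change was 0.10 (SE 0.14, 95% interval -0.21 to 0.42). Markers of 2 cell types that carry Ano1 in other organs were read beside it: 0 of 8 smooth muscle genes and 0 of 3 genes of interstitial cells of Cajal (Kit, Etv1 and Prkcq) passed an adjusted p of 0.05 by limma. The smooth muscle signals summed to 1064000–1421000 in controls and 878500–1186000 in Gen-treated mice.

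Ano6, the scramblase, was also bright and overlapped between the groups. Its brightest probe read 12943–19122 in controls and 11609–21203 in Gen-treated mice (log2 fold change 0.04, SE 0.21, 95% interval -0.45 to 0.53). The second probe differed by -0.15 (SE 0.17). The third, dim probe was above background on 1 control array and all 4 Gen arrays, and its groups overlapped at 13.7–54.0 and 24.8–50.7 (0.64, SE 0.43). The 3 probes thus gave differences of both signs, each within 2 SE of 0.

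Ano10 had the narrowest spread of the group. The brighter of its 2 probes read 4492–4986 in controls and 4799–5541 in Gen-treated mice (log2 fold change 0.12, SE 0.10, 95% interval -0.11 to 0.36). The other probe, 75.1 kb away, gave 0.01 (SE 0.13). Both probes overlapped between the groups.

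Ano4, Ano5 and Ano3 were dim. Ano4 read 104–153 in controls against 123–253 in Gen-treated mice on its brightest probe, whose 60 bases span 24557 bases of the genome, and the log2 fold change was 0.38 (SE 0.24, 95% interval -0.16 to 0.93). The mean over all 3 Ano4 probes was at -0.21. A second Ano4 probe above background on all 8 arrays gave 0.26 (SE 0.17). The third was not above background on any array and gave -1.27 (SE 0.27), close to the median of such probes, so the 3 Ano4 probes disagreed in sign only where there was no signal.

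Ano5, known for muscle and bone disease when mutated, was above background on 2 control arrays and all 4 Gen arrays. Its signals were 25.0–47.5 in controls against 22.2–52.4 after Gen, with overlap (0.19, SE 0.31). Ano3 was not above background on any array. Its log2 fold change of -1.15 (SE 0.27) is near the -1.16 median of all such probes and turned to 0.03 with quantile normalization.

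**Figure D3:**
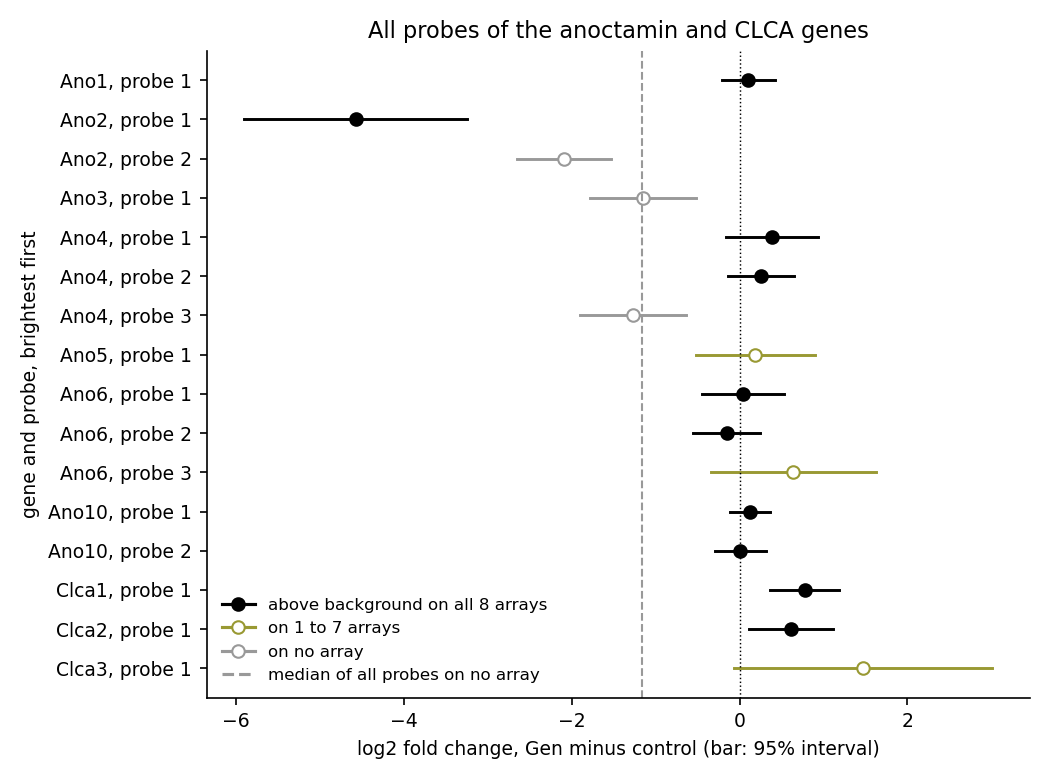
Log2 fold change, Gen minus control (x axis), of all 16 probes of the 10 genes (y axis), with 95% intervals from limma; filled black points were above background on all 8 arrays, open points on fewer, and grey open points on no array. The 3 probes on no array read -2.09 (Ano2), -1.15 (Ano3) and -1.27 (Ano4), beside the median of all such probes, -1.16 (dashed line).

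The 3 CLCA genes lie in 1 cluster on chromosome 3 and each had a higher mean in Gen-treated mice, though only Clca1 separated the groups. The Clca1 signals were 818, 763, 1062 and 773 in controls and 1333, 1807, 1161 and 1585 in Gen-treated mice. The lowest Gen-treated mouse was just above the highest control. The means were 846 and 1451, a log2 fold change of 0.78 (SE 0.18, 95% interval 0.37 to 1.19), or 1.72-fold.

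Clca2, whose probe lies 67.1 kb from that of Clca1, read 446, 622, 770 and 560 in controls and 845, 1220, 720 and 892 in Gen-treated mice. Gen replicate 3 fell below control replicate 3, so the groups overlapped. The log2 fold change was 0.62 (SE 0.22, 95% interval 0.12 to 1.12). Gen replicate 2 was the highest and Gen replicate 3 the lowest of its group for both genes, and control replicate 3 was the highest of its group for both. The Clca1 probe may read both genes, so their likeness over mice is not separate evidence for each.

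Clca3 (gob-5), a gene of mucus-secreting goblet cells in gut and airway, was dim and varied more than Clca1 and Clca2. Its signals were 87.9, 24.7, 27.0 and 67.5 in controls and 53.7, 80.5, 380 and 144 in Gen-treated mice, above background on 2 and 4 arrays. The Gen-treated mice ranged over 7.08-fold, with replicate 3 far above the rest, and the groups overlapped. The log2 fold change was 1.48 (SE 0.67), its 95% interval reached from -0.06 to 3.01, and without 1 array at a time it was 0.94–1.88. With normexp it was 0.56 and with the floor 0.87.

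Goblet and mucous cell markers moved in both directions beside Clca3. Of 7 such genes 5 had a probe. Agr2, which folds mucins (1.18, SE 0.24), and Muc5b, a gel-forming mucin (2.15, SE 0.61), were higher by limma, at adjusted p = 0.0236 and 0.0493. Muc5b was above background on 2 control and 4 Gen arrays, and Gen replicate 2, at 791, stood far above the rest of its group, at 115–155. Spdef, a transcription factor of goblet cells (-0.81, SE 0.12), and Muc2, the gut mucin (-1.39, SE 0.31), were lower at adjusted p = 0.0236 each, Muc2 on a probe above background on 2 control and 3 Gen arrays. Tff3 was lower too but not called (-2.14, SE 0.63, limma adjusted p = 0.0568). Its probe was above background on 2 control and 2 Gen arrays. The summed signal of the list was 25530–37520 in controls and 43170–81080 in Gen-treated mice, most of it from Agr2. These marker calls too were made with the main processing only, and Muc5b passed narrowly. The part of mucous cells in the Clca3 value was not tested.

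The remaining CLCA genes of the cluster were at or near background, and no probe of the flanking genes that was above background on all 8 arrays passed an adjusted p of 0.05 by limma. Clca4 (-0.32), Clca5 (-1.10) and Clca6 (-1.20) were not above background on any array, so their log2 differences are not levels of these genes, and Clca4b (array name AI747448) was above background on 0 control and 2 Gen arrays. Among the flanking genes, Sh3glb1, 21.1 kb from the Clca1 probe, differed by -0.03 (SE 0.17) on the nearest of its 3 probes and by 0.50 (SE 0.14, limma adjusted p = 0.0501) on another. On the far side, Odf2l differed by 0.20 (SE 0.22).

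**Figure D4:**
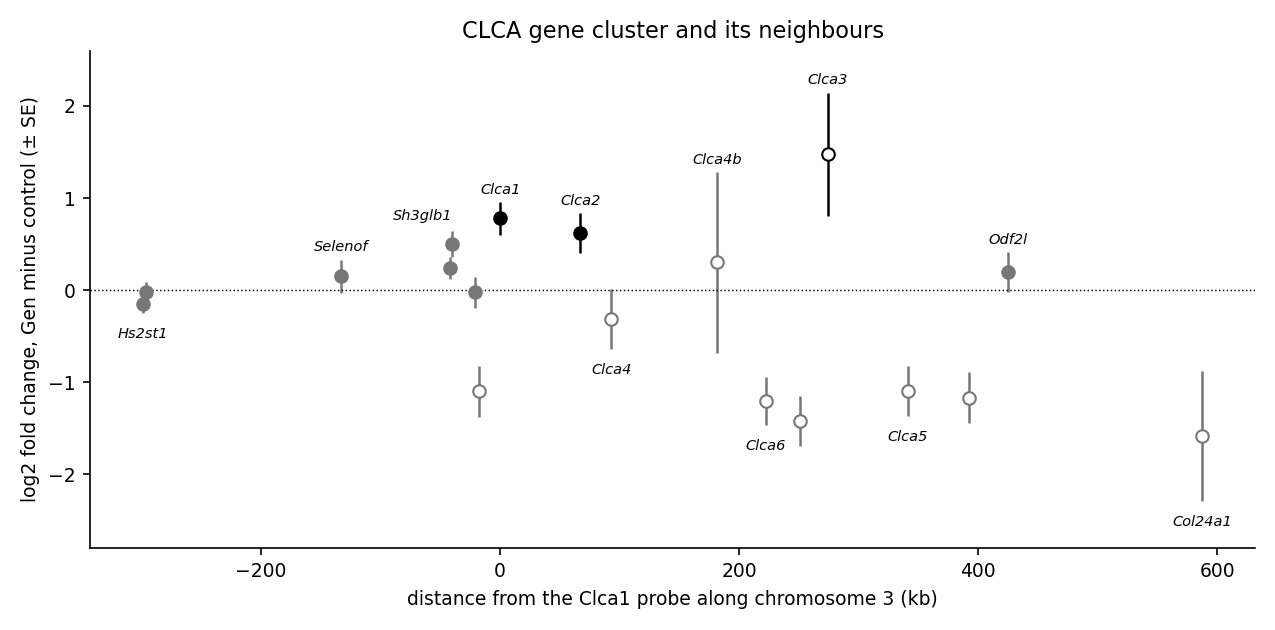
Log2 fold change, Gen minus control, ± SE (y axis) of all probes around the CLCA cluster against distance from the Clca1 probe in kb (x axis); black marks Clca1, Clca2 and Clca3, grey the other genes, and open points probes not above background on all 8 arrays. Clca1 (0.78), Clca2 (0.62) and Clca3 (1.48) are positive, and the unlabelled open points are transcripts with no gene symbol and a dim probe of Odf2l.

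Counted by an adjusted p under 0.05 over all 41173 probes tested, 1 of the 16 probes was higher in Gen-treated mice (Clca1) and 4 were lower (both Ano2 probes, Ano3 and the dimmest of Ano4). Over the whole array 2.17% of probes were higher and 14.0% lower. Among the 10 member probes above background on all 8 arrays, 1 was higher and 1 lower, against 1.92% higher and 2.44% lower of all such probes. The 3 member probes not above background on any array were all counted lower, as were 63.6% of all probes of that kind. Since the genes were selected on this contrast, nothing is read from these counts. The median log2 fold change over the 10 genes, at their brightest probes, was 0.16, and over all probes -0.06. The number of calls changed when single arrays were left out. Without Gen replicate 1, 2 or 3 none of the 10 genes was counted. Without control replicate 1 or with a filter on dim probes Ano2 alone was. Over the whole array the 6674 probes past the adjusted p fell to 3, 2 and 1 without Gen replicate 1, 2 and 3. Probes at an unadjusted limma p under 0.01 fell less, from 7077 to 6190, 5844 and 6044. Calls by the adjusted p, for other genes too, thus hang on where that threshold falls.

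Of the family genes that were not among the 10, Ano8 read 720–1133 (controls) and 986–1287 (Gen-treated mice) (0.39, SE 0.17, limma adjusted p = 0.184), and Ano9 differed by 0.04 (SE 0.28). Ano7 was not analysed here.

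Chloride channels of other families showed no gene past the test. All 30 genes of the list had a probe and 28 were above background on all 4 arrays of a group, with a median log2 fold change of 0.07. By limma 0 of the 28 had an adjusted p under 0.05, and 5 had an unadjusted p under 0.05. Cftr, the cAMP-regulated chloride channel of epithelia, read 3449–4759 in controls and 2767–5484 in Gen-treated mice (0.14, SE 0.23). Named after their values were seen, Clcn1, the chloride channel of skeletal muscle, had the lowest value of the 28 (-1.25, SE 0.37, adjusted p = 0.0546), and Pacc1, a proton-activated chloride channel, was at 0.43 (SE 0.13, adjusted p = 0.0617). With an intensity trend and robust fit, Clcn1, Pacc1 and Ostm1 passed, so the count of 0 depends on how the variance was modelled.

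Chloride cotransporters and exchangers load and unload chloride across the epithelium. Their list also holds kinases, Wnk1, Wnk2, Wnk3, Wnk4, Stk39 and Oxsr1, which are not transporters. It had 2 higher genes and 0 lower ones among the 20 of 25 that were above background on all 4 arrays of a group. The median of these 20 was -0.06. Named after its values were seen, Slc26a7 had the highest value of the 20 (2.08, SE 0.65, limma adjusted p = 0.0662), with overlap. Slc26a7 was above background on 2 control and 4 Gen arrays. It passed without scaling and with the trend and robust fit. Slc26a3, a chloride-bicarbonate exchanger of the gut, read 103, 50.1, 59.8 and 82.0 in controls and 366, 253, 192 and 250 in Gen-treated mice. It rose by 1.86 on the log2 scale (SE 0.27, adjusted p = 0.0236 by limma) with no overlap, and was above background on 3 control arrays. The value was 1.05 with normexp and 0.80 with the mean of all probes of the gene, and the call was lost with the floor (adjusted p = 0.0797), the methods' t-test (0.0630), the replicate block (0.0791), and without Gen replicate 1, 2 or 3 (0.0603–0.0675). Slc12a8, a member of the cation-chloride cotransporter family, read 418, 483, 895 and 558 in controls and 4003, 2056, 903 and 1783 in Gen-treated mice. It was higher by 1.76 (SE 0.44, adjusted p = 0.0293), although Gen replicate 3 barely exceeded control replicate 3. Slc12a2, the cotransporter that loads chloride into secretory cells, differed by 0.30 (SE 0.12, adjusted p = 0.142). Slc12a8 no longer passed with the filter on dim probes (adjusted p = 0.0896), quantile normalization (0.111), normexp (0.0945), the floor (0.221), the methods' t-test (0.0759) or the replicate block (0.117), nor without any 1 array other than control replicate 3 (0.0552–0.0758).

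Beside Ano6, 10 genes of other lipid scramblases and flippases were measured and all were above background on all 4 arrays of a group. Their median log2 fold change was 0.17. Plscr2, a phospholipid scramblase, was the 1 gene past the test, with means of 3402 (controls) and 7615 (Gen-treated mice) (1.16, SE 0.31, limma adjusted p = 0.0354). It no longer passed with the filter on dim probes (adjusted p = 0.0986), quantile normalization (0.111), normexp (0.107), the floor (0.226), the methods' t-test (0.0804) or the replicate block (0.0964), nor without control replicate 1 or 2 or any 1 Gen replicate (0.0603–0.0927). Gen replicate 3, at 4126, lay next to the highest control, at 4115. All 34 genes of calcium release and entry, which set the calcium that opens Ano1 and Ano2, had a probe. Of the 30 above background on all 4 arrays of a group, 0 passed the adjusted p and 5 had an unadjusted p under 0.05, with a median of -0.05. Of the 4 others, which were not above background on any array, Trpc7 passed as lower. The inositol trisphosphate receptors Itpr1 (0.10, SE 0.11), Itpr2 (-0.09, SE 0.14) and Itpr3 (0.20, SE 0.11) were bright in both groups.

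**Figure D5:**
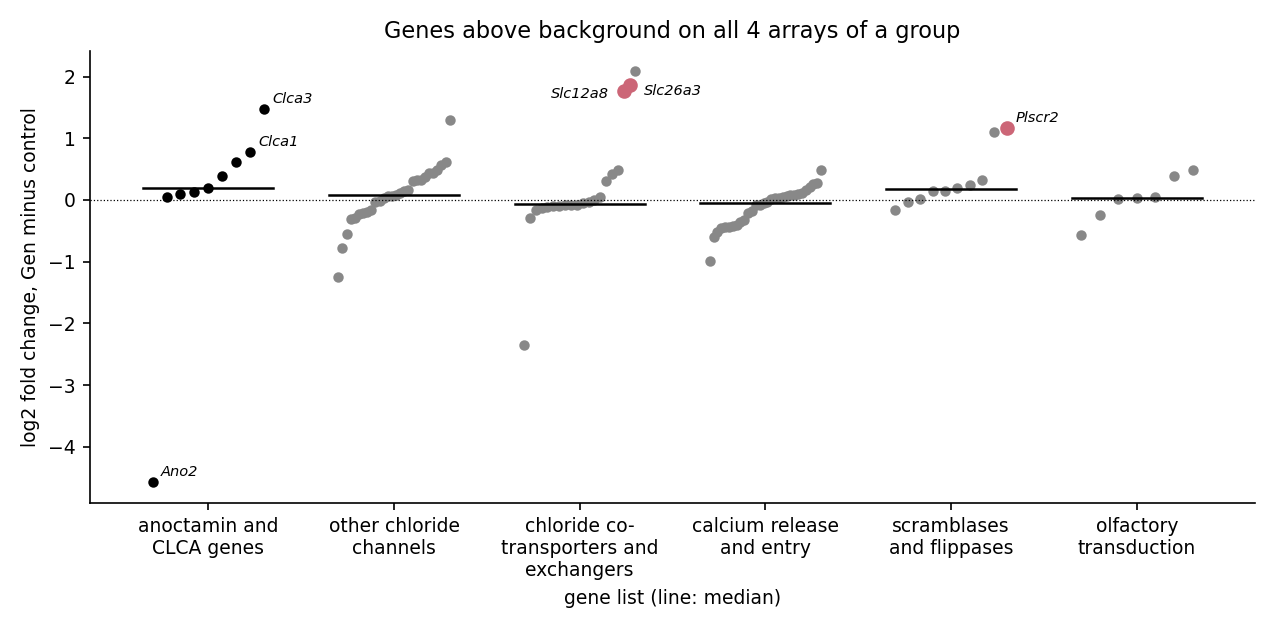
Log2 fold change, Gen minus control (y axis), of genes above background on all 4 arrays of a group, by list (x axis); each point is 1 gene at its brightest probe, the lines are medians, and red points are genes of the other 5 lists past an adjusted p of 0.05 with no overlap; the anoctamin and CLCA genes are all in black. Ano2 (-4.58) lies below every gene of the other lists, and Slc26a3 (1.86), Slc12a8 (1.76) and Plscr2 (1.16) are the red points.

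The genes whose signals were most like Ano2 were sought as a description, over 8 arrays that share 2 slides and 1 treatment contrast. The search took 22278 probes with a RefSeq name, outside the member genes, that were above background on all 4 control arrays. By Pearson correlation of log2 signals the nearest were Chid1, Capn1, Ap3b2, Lct and Wfdc6a, with correlations of 0.98 to 0.99. In that order their log2 fold changes were -0.13, -0.45, -1.07, -0.90 and -1.38, against -4.58 for Ano2. A high correlation thus did not mean a fall of like size. When the group means were taken out first, the nearest were Slc41a3, Mid2, Fastkd2, Zc3h15 and Clmp, at 0.95 to 0.98. In that order their log2 fold changes were -1.08, -0.23, 0.06, -0.17 and -0.37. No gene was on both lists, and Fastkd2 had a correlation of -0.16 with Ano2 before the group means were removed.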

How the data were processed

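Oviduct RNA of 4 control and 4 Gen-treated mice was hybridized to Agilent whole mouse genome arrays. The deposited files are scanner output of the authors' Agilent Feature Extraction 9.5, whose processed signal is a linear intensity adjusted for background within each array without scaling between arrays; the study's later Rosetta Resolver step was not applied. In the table of the whole series the authors deposited, all 45018 values per array equal these intensities (relative difference under 1e-05). The 1639 control spots and the outlier spots were left out, log2 signals of a probe were averaged, and arrays were scaled to the 75th percentile. Groups were compared by limma 3.58.1 (lmFit and eBayes) in R 4.3.3 with Benjamini-Hochberg adjustment over 41173 probes, and plots were drawn with matplotlib 3.10.9. The brightest probe stood for a gene in counts. Names came from RefSeq tables (GRCm38.p6) by accession for 22951 probes and by symbol or synonym for 9768, and the file's name was kept for 8455. The limma fit was tested on simulated data that held no shift of dim probes between the groups, and the overlap rule on a small example. The averaging, scaling and naming of probes were not tested in that way.

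The members, the lists and the alternatives were chosen with earlier results of these data known. The genes named are all members, the other genes of both families, up to 5 genes per list past the test without overlap, and the 5 genes most like Ano2 by each measure; others are said to be chosen after their values were seen, or are given as known members of a list. Alternatives to these choices were normalization by quantiles or none, normexp (offset 50), removal of dim probes, a floor under low signals and use of outlier spots. Others were a robust fit with an intensity trend, Student's t-test, blocking by replicate number, averaging over all probes of a gene, and leaving out each array in turn. The study called its array probes by analysis of variance at p under 0.01 after its own processing, which the t-test here does not repeat. The number of arrays limits the precision. No genome of the probes' build was used, so exons and introns are not given. Some items are not reported here.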

Additional observations from a re-analysis of the deposited data

How the results depend on the processing

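The count of altered probes, 6674, depended strongly on the setting. It was 178 with quantile normalization, 640 without scaling, 251 with normexp, 20 with the floor and 321 with the filter on dim probes. By Student's t-test it was 0 after adjustment, with 6098 probes at an unadjusted p under 0.01 and 11364 under 0.05. With the replicate number as a block it was 1. Of the 10 genes, 3 were counted at first, and 1 (Ano2) with quantile normalization, no scaling, normexp or the dim filter, and 0 with the floor, the t-test or the replicate block. Of the other chloride channel genes 3 were counted with the trend and robust fit and 2 with the mean of all probes, and of the other lists, 6 at first, 1 with quantile normalization, normexp or the dim filter and 0 with the floor, the t-test or the block. Other rules were added after the data were seen. By no overlap between the groups 6 of 30 other chloride channel genes and 11 other list genes were counted. Over the whole array 9239 of 41173 probes had no overlap. By an unadjusted limma p under 0.01, 1 chloride channel gene was counted, beside 7077 probes of the whole array. Leaving out each array in turn gave 1 to 7130 altered probes, 0 to 3 of the 10 genes, 0 to 0 other chloride channel genes and 0 to 6 other list genes.

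Ano2 kept its direction throughout, at -3.23 with normexp and -3.33 with the mean of its probes, and -5.06 to -4.23 with 1 array left out. Ano3 changed sign with quantile normalization (0.027) and was 0 with the floor. Without scaling, the median of all probes was 0.18 in place of -0.06, and Ano1 was at 0.34 and Ano10 at 0.36. Between control and Gen arrays of the same replicate number, deviations from the group means correlated at -0.18 to 0.11. The study compared Gen-treated mice with control littermates, but the sample labels do not say which mice shared a litter. These correlations cannot settle whether mice were paired. Signals near background limit Ano2 in Gen-treated mice, Clca3 and Ano5. The causes were not tested.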

Other observations

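The gene next to Ano2 on chromosome 6 was looked at after its values were seen. Of 3 Vwf probes, which read the von Willebrand factor of endothelium, the brighter 2 differed by 0.16 (SE 0.20) and 0.27 (SE 0.22), whereas the third, 435 kb from the brighter Ano2 probe, had signals of 64.3, 130, 574 and 8.96 in controls and 3.73, 2.93, 3.51 and 19.1 in Gen-treated mice. It was above background on 3 control arrays and no Gen array, the groups overlapped, and the log2 fold change of -3.96 (SE 1.21) had a limma adjusted p of 0.0624. Of 4 endothelial markers 0 passed that test, and their summed signals were 8785–10190 in controls and 9094–12080 in Gen-treated mice. Ntf3, a neurotrophin gene on the other side of Ano2, differed by 0.18 (SE 0.17). Farther on that side, 493 kb from the brighter Ano2 probe, Kcna5, a potassium channel gene, read 101, 7.35, 14.2 and 6.19 in controls and 12.3, 223, 178 and 335 after Gen. It was above background on 1 control and 3 Gen arrays, and the groups overlapped (2.82, SE 1.23, limma adjusted p = 0.179).

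Among the chloride exchangers, Slc26a4 (pendrin), also chosen after its values were seen, read 430, 325, 9765 and 413 in controls and 166, 103, 315 and 153 in Gen-treated mice. The groups did not overlap, but control replicate 3 stood far above the others, and the log2 fold change of -2.35 (SE 1.05) had a limma adjusted p of 0.189.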
